A study of Caenorhabditis elegans with 8 samples.

Results

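The astacins are a family of secreted zinc metalloproteases, here taken as every listed gene of Caenorhabditis elegans whose symbol is nas- followed by digits, together with hch-1, dpy-31 and toh-1. By this rule 35 of the 17076 listed genes were members, and all 35 are protein-coding. The gene name table holds 5 further IDs that fit the rule, 2 under the symbol nas-2 and 1 each for nas-16, nas-17 and nas-18; these were not analysed here. The genes were followed in intact hermaphrodites of N2, the standard wild-type laboratory strain, labelled adult day 5 and adult day 1. Both groups grew on OP50 bacteria at 20 °C from synchronized first-stage larvae, for 180 h in the day 5 group and 60 h in the day 1 group, with no other treatment or mutation stated. Each age had 4 libraries of poly(A)-selected RNA, 1 in each of 4 labelled batches. The labels do not state whether the 4 libraries of an age had cultures of their own. The p-values therefore rest on the variation among these libraries, part of which may be technical.

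Astacins are made as inactive precursors whose pro-peptide is cut away, and they bind zinc through a conserved histidine motif. The family is named after a digestive enzyme of crayfish, and its vertebrate members include bone morphogenetic protein 1, also called procollagen C-proteinase, which trims collagen precursors. In the worm, astacins are known for digesting the eggshell at hatching, for processing cuticle collagens, and for freeing the old cuticle at each moult.

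Libraries held 20569012 to 22305681 recovered reads at day 5 and 19345868 to 20763236 at day 1. Levels are the deposited values, which are read counts scaled by a factor set for each library and not corrected for gene length, so that a value of 1 is about 1 read. Per-library values are listed in batch order, from batch 1 to batch 4. Each log2 difference is the day 5 mean less the day 1 mean of log2(value + 1), from limma run on the 16739 genes whose mean value reached 1, and a gene was called when its Benjamini-Hochberg adjusted p was under 0.05. The yolk protein genes, which mark adult hermaphrodites, had a summed value of 589523 to 1297260 in the day 5 libraries and of 1804, 4415, 122 and 111 at day 1. Genes of the larval moult, described further on, were higher at day 1, so adult age and the end of larval development cannot be told apart in this comparison.

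Most astacin genes were lower at day 5, and a smaller group was higher. Of the 34 members tested, 19 were called lower at day 5 and 8 higher, and 7 were not called. Among all genes tested 26.8% were called lower and 28.8% higher, 55.6% in all. The median log2 difference over the tested members was -1.76, against -0.06 over all genes tested. In 20 of the 35 members every day 5 library lay below every day 1 library, and in 7 every day 5 library lay above, where 25.2% and 27.6% of all genes tested did so, 52.8% in all. The direction was the same in all 4 batches for 30 of the 34 tested members, against 61.9% of all genes tested. Of the members called higher, hch-1, nas-10 and nas-21 had a day 1 mean under 1 and passed the filter on low values through the day 5 libraries alone. As RNA came from whole worms, fewer cells of a type and less RNA per cell cannot be told apart.

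**Figure D1:**
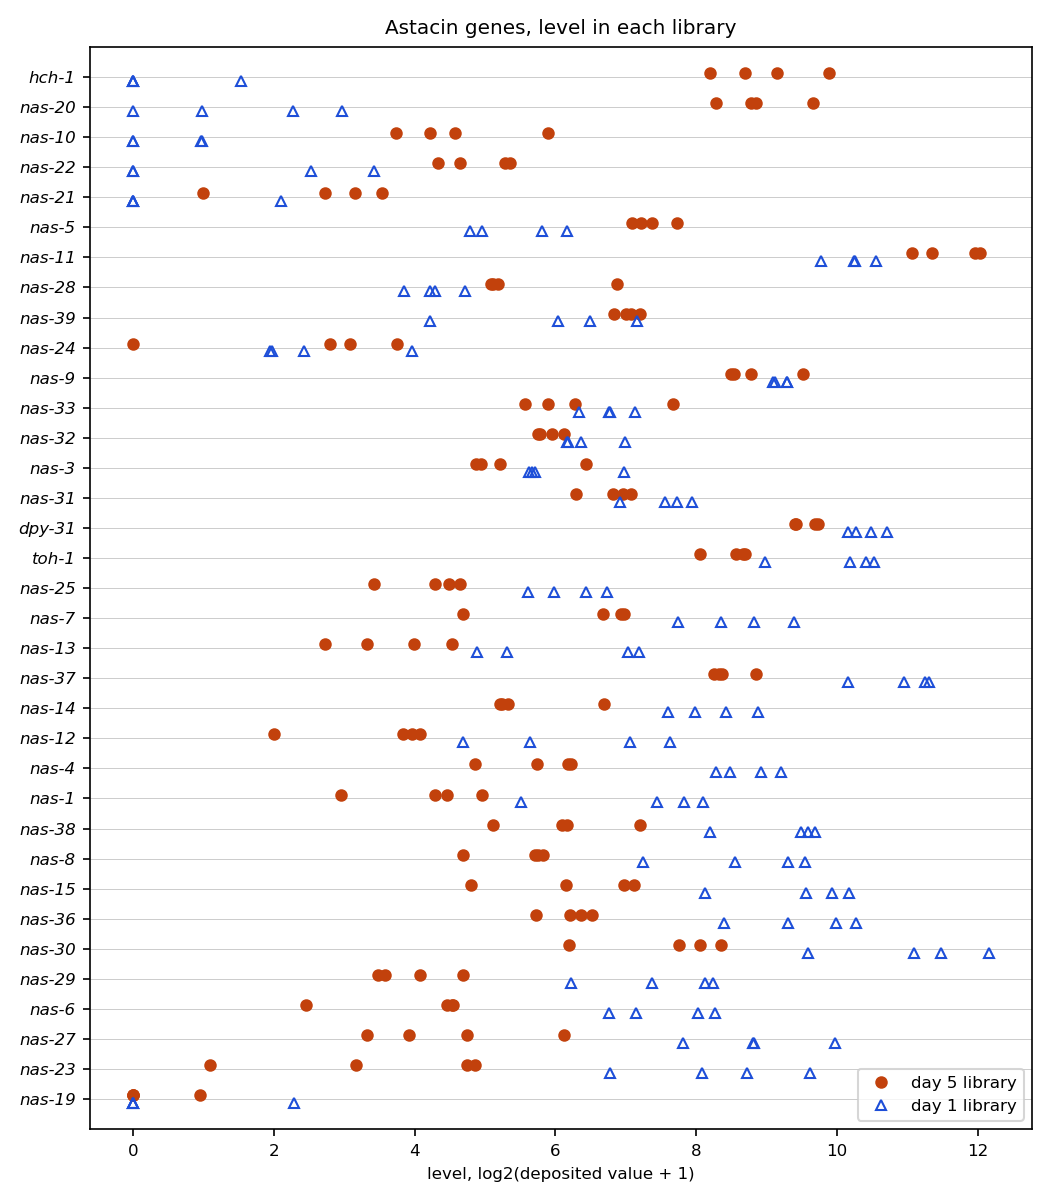
Level of each of the 35 astacin genes in each library, as log2(deposited value + 1), with filled circles for the 4 day 5 libraries and open triangles for the 4 day 1 libraries; genes are ordered by their difference, and nas-19, not tested, is at the bottom. The symbols of the 2 ages are apart in 27 rows, with day 5 to the left in 20 of them.

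The family as a whole took a smaller share of the reads at day 5. Astacin genes held 0.0338, 0.0391, 0.0505 and 0.0282% of the reads at day 5, against 0.0576, 0.0767, 0.083 and 0.0886% at day 1, so the 2 ages did not overlap. The shares within the family are a description, since the members were grouped by their calls in the same libraries. Per kb of exons, the 8 members called higher made up 53.7 to 71.2% of the summed astacin value at day 5 and 6.47 to 16.9% at day 1. The 19 members called lower made up 20.0 to 34.1% at day 5 and 73.3 to 86.7% at day 1.

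The moulting proteases were among the genes called lower. The protease gene nas-37 (WBGene00003553; WBcel235 chromosome X, 9944844 to 9949063, minus strand), whose mutants cannot shed the old cuticle, had values of 318, 459, 330.4 and 303 at day 5 and of 2434, 1973, 1144 and 2526 at day 1. All day 5 values were well under the lowest day 1 value, that of batch 3. Its log2 difference was -2.47 (SE 0.27, limma adjusted p = 6.27e-05). The second gene needed for ecdysis, nas-36 (WBGene00003552; I, 7527224 to 7531715, plus strand), was at 51.8, 72.7, 91.2 and 81.7 at day 5 and at 335, 633, 1231 and 1015 at day 1. In this gene the day 1 library of batch 3 was the highest, the reverse of nas-37. The difference was -3.28 (SE 0.40, adjusted p = 0.000108).

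Members with a described role in larval sleep or the foregut also fell. A mutant form of nas-38 (WBGene00003554; X, 558157 to 563708) is known to lengthen the sleep-like rest of moulting larvae. Its values were 33.8, 67.1, 146 and 70.7 at day 5, against 293, 716, 821 and 768 at day 1, a log2 difference of -3.09 (SE 0.47, adjusted p = 0.000402). The gene nas-6 (WBGene00003525; IV, 17486842 to 17490779), needed for a normal grinder, the cuticle-lined crushing organ of the pharynx, was at 4.5, 22.4, 22.1 and 20.9 at day 5 and at 108, 141, 259 and 307 at day 1. The day 5 library of batch 1 was the lowest by a wide gap. The difference of nas-6 was -3.55 (SE 0.56, adjusted p = 0.000482). The gene nas-7 (WBGene00003526; II, 7400545 to 7402725) had values of 24.8, 125, 121 and 102 at day 5 and of 214, 325, 668 and 454 at day 1, with a difference of -2.26 (SE 0.55, adjusted p = 0.00579). Again the lowest value was that of the day 5 library of batch 1, and the ages did not overlap.

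Most pharynx markers were also called lower at day 5, and their part in the result was not tested. For comparison, 26.8% of all genes tested were called lower and 28.8% higher. Of 11 pharynx markers 8 were called lower at day 5, 2 were not called and 1, phat-3, a gene of the pharyngeal glands, was called higher. The call of phat-3 was lost in 10 of 30 alternatives, among them leaving out the day 1 library of batch 1 or the day 5 library of batch 1 or 2. The summed value of the pharynx markers was 3322 to 5057 in the day 5 libraries and 10061 to 28247 in the day 1 libraries. At day 1 the sum was lowest in batch 3. Its largest parts at day 1 were myo-1 and myo-2, with means of 6049 and 6465. The median of log2(value + 1) over the markers was 7.34, 7.92, 7.55 and 7.97 at day 5. At day 1 it was 8.07, 8.87, 9.64 and 9.79. The gene ceh-22, a homeobox gene of pharyngeal muscle, was at 0 in the day 5 library of batch 4. Of 7 intestinal markers 4 were called lower, 2 were not called and 1, the metallothionein gene mtl-1, was called higher. Their summed value was 10135 to 12524 at day 5 and 42289 to 50033 at day 1. The largest part of that sum at both ages was act-5, with means of 7286 at day 5 and 31497 at day 1.

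The genes dpy-31 and toh-1 had the smallest decreases of the members called lower, and the difference from the other members was not tested. DPY-31, a procollagen C-proteinase of the worm, trims cuticle collagen precursors such as SQT-3, and worms without it are short and mostly die. Its gene dpy-31 (WBGene00006592; III, 7202206 to 7207664) had values of 846, 679, 827 and 685 at day 5 and of 1437, 1235, 1140.4 and 1684 at day 1. The libraries of each age lay close together and did not overlap with those of the other. The log2 difference was -0.85 (SE 0.18, adjusted p = 0.00319), or -1.40 with quantile normalization, and it was not called when tested against 1.5-fold (adjusted p = 0.192). The gene toh-1 (WBGene00006591; III, 3804772 to 3809030), named as a homologue of the fly protease tolloid, was at 264, 377, 406 and 412 at day 5 and at 505, 1479, 1357 and 1167 at day 1. The day 1 library of batch 1 was the nearest to the day 5 values. The difference was -1.53 (SE 0.34, adjusted p = 0.00343).

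The collagens tied to DPY-31 moved in opposite directions; SQT-3 is its known substrate, and DPY-17 acts with SQT-3. The cuticle collagen gene sqt-3 was at 602, 1949.7, 3122 and 2931 at day 5 and at 24360.4, 16772, 10938 and 20441 at day 1, a log2 difference of -3.26 (SE 0.49, adjusted p = 0.000381). The collagen gene dpy-17 was at 240, 578, 712 and 559 at day 5 and at 30.5, 44.7, 73.8 and 160 at day 1, a difference of 2.91 (SE 0.52, adjusted p = 0.00105). Neither collagen overlapped between the ages. Calls of lower covered 26.8% of all genes tested, and calls of higher 28.8%. Among 16 other genes for collagen processing, secretion and crosslinking, 11 were called lower, 1 higher and 4 were not called, with a median of -1.01. The largest decreases were those of the prolyl 4-hydroxylase subunit genes phy-2 and phy-4 and of the procollagen lysyl hydroxylase gene let-268, at -2.50 (SE 0.24), -2.38 (SE 0.67) and -2.13 (SE 0.23). The member called higher was tmem-131, which acts in collagen secretion, at 1.25 (SE 0.47), with overlapping ages; that call was lost in 19 of 30 alternatives, among them edgeR (adjusted p = 0.0849). With edgeR phy-4 was not called either (adjusted p = 0.0541).

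The 2 largest decreases of the family were those of nas-23 and nas-27, and no role is given here to these genes or to nas-29 and nas-30. The value of nas-23 (WBGene00003542; II, 7491267 to 7493699) was 1.13, 27.9, 7.97 and 25.9 at day 5 and 109, 271, 788 and 422 at day 1, so both ages varied widely without overlap. Its difference was -4.84 (SE 0.88, adjusted p = 0.00112). Values of nas-27 (WBGene00003545; II, 1175925 to 1179323) were 9.0, 68.9, 14.2 and 25.9 at day 5, against 224, 448, 999 and 452 at day 1, with a difference of -4.32 (SE 0.63, adjusted p = 0.000312). Those of nas-29 (WBGene00003547; II, 5138519 to 5142036) were 10.1, 15.8, 24.8 and 10.96 at day 5, against 73.4, 165, 301 and 279 at day 1, with a difference of -3.54 (SE 0.50, adjusted p = 0.00027). In both genes the day 1 library of batch 3 was the highest and that of batch 1 the lowest. The most abundant of these genes, nas-30 (WBGene00003548; I, 938483 to 947710), was at 72.0, 214, 326 and 266 at day 5 and at 771, 2184, 4589 and 2866 at day 1, with a difference of -3.50 (SE 0.59, adjusted p = 0.000737).

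The other 8 members called lower were nas-1, nas-4, nas-8, nas-12, nas-13, nas-14, nas-15 and nas-25. Their differences ran from -3.19 (nas-15) to -1.98 (nas-25), with adjusted p between 0.000107 and 0.00822, and the ages did not overlap in any of them. Their mean values were 11.7 to 89.8 at day 5 and 75.2 to 789 at day 1. The calls of nas-12 and nas-13 were lost without the day 1 libraries of batches 3 and 4, where the differences were -1.69 (adjusted p = 0.0623) for nas-12 and -1.46 (adjusted p = 0.0612) for nas-13. They were also lost without batch 4 at both ages (adjusted p = 0.0631 for nas-12 and 0.0635 for nas-13).

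**Figure D2:**
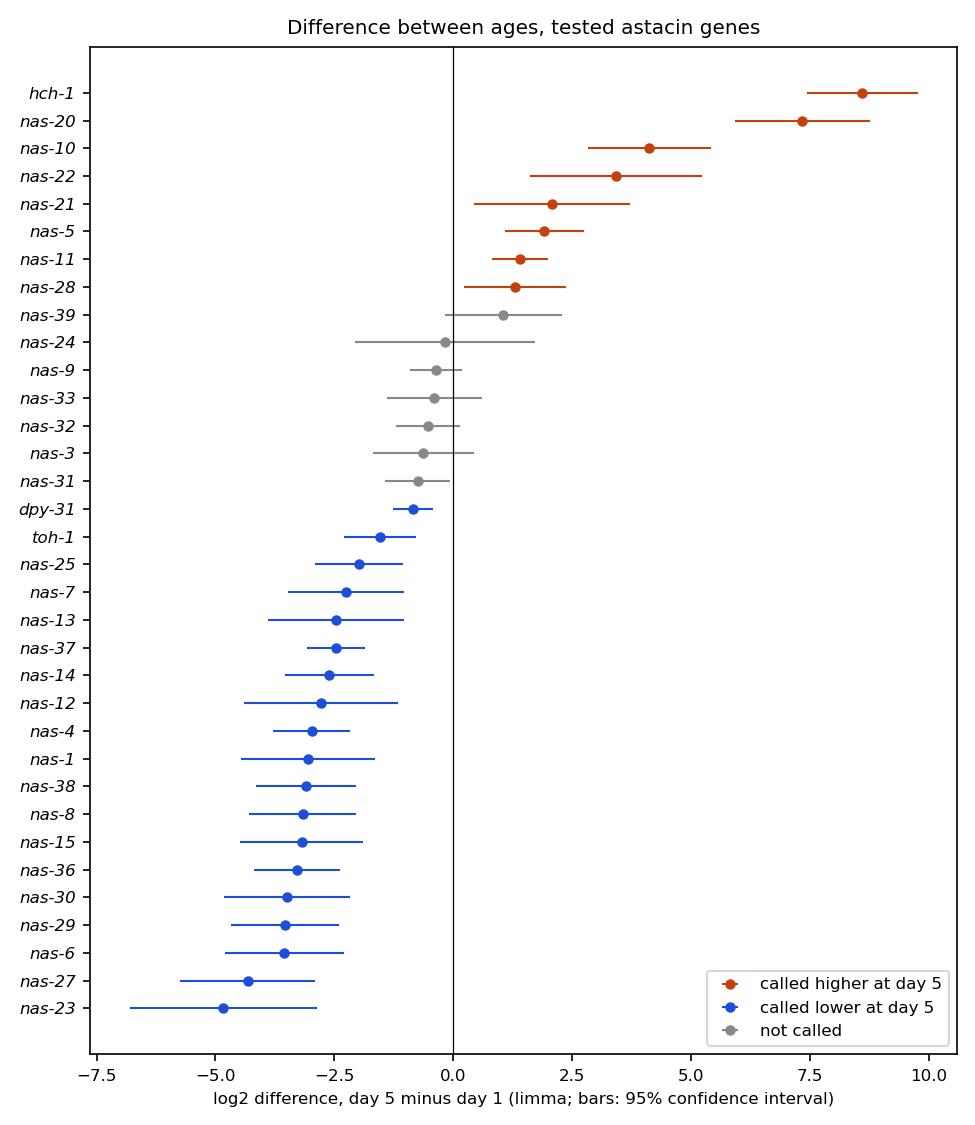
Log2 difference of day 5 minus day 1 for the 34 tested astacin genes, from limma on log2(value + 1), with 95% confidence intervals; colours mark genes called higher, called lower or not called. Differences run from -4.84 for nas-23 to 8.60 for hch-1, and the interval of dpy-31, from -1.26 to -0.43, is the narrowest.

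Day 1 libraries differed from each other in the astacin genes called lower. The library of batch 1 was the lowest of day 1 in 15 of these 19 genes and the highest in none, and the library of batch 3 was the highest in 11 and that of batch 4 in 7. The exceptions were nas-4, nas-15, nas-37 and dpy-31, in which batch 3 was the lowest. Among all 4487 genes called lower, batch 1 was the lowest of day 1 in 42.4% and batch 3 the highest in 42.4%. At day 5 the library of batch 1 was the lowest in 15 of the 19 astacin genes, against 50.2% of all genes called lower.

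**Figure D3:**
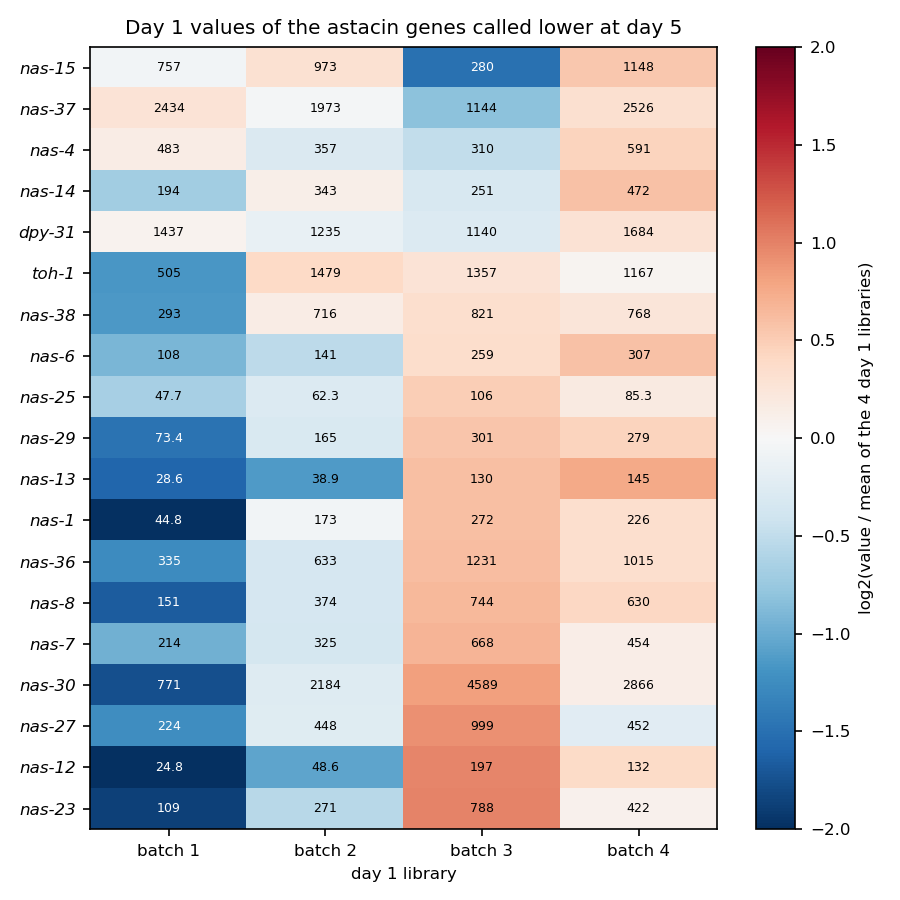
Deposited values of the 19 astacin genes called lower at day 5 in each of the 4 day 1 libraries, written in the cells; colour is the log2 ratio to the mean of the 4 libraries, and genes are ordered by that ratio in batch 3. Batch 1 holds the lowest value in 15 rows, and batch 3 in those of nas-15, nas-37, nas-4 and dpy-31.

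The general moulting genes also fell at day 5 but showed another order of the day 1 libraries. Among all genes tested 26.8% were called lower and 28.8% higher, with a median of -0.06. Of 30 genes of the moulting pathway 25 were called lower, 2 higher and 3 were not called, with a median of -2.08. Their summed value was 20668 to 27886 in the day 5 libraries and 43346 to 127740 in the day 1 libraries, and their part in the astacin result was not tested. The largest decreases were those of mlt-8, qua-1 and mlt-9, at -3.72 (SE 0.50), -3.57 (SE 0.43) and -3.40 (SE 0.57); loss of mlt-8 or mlt-9 disturbs moulting, and qua-1 encodes a hedgehog-related secreted protein. The higher members were ptr-2, a patched-related gene, at 2.73 (SE 0.18) and nekl-2, a NIMA-related kinase gene, at 0.91 (SE 0.28). The call of nekl-2 was lost in 6 of 30 alternatives, leaving out the day 5 library of batch 1 among them. Among the 25 moulting genes called lower, the day 1 library of batch 1 was the highest in 16 and that of batch 3 the lowest in 20. The moulting genes mlt-8 and bli-5, a Kunitz-type protease inhibitor gene, were highest in batch 3 instead, with day 1 values of 4704, 4599, 9388 and 8614 for mlt-8 and of 64.8, 122, 409 and 271 for bli-5. These were the only 2 of the 25 with their highest day 1 value in batch 3, and they were singled out after their values were seen.

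The hatching enzyme gene had the largest increase. HCH-1 digests the eggshell so that the larva can leave it, and it is also known for a role in the migration of a neuroblast. The gene hch-1 (WBGene00001828; X, 14696411 to 14699977, minus strand) was at 293, 567, 949 and 411 at day 5 and at 1.91, 0, 0 and 0 at day 1. At day 1 it had 2 reads in all, both in batch 1, against 2354 reads at day 5. The ratio of reads corrected for size factors was 1155, with an exact 95% interval of 319 to 9539 that covers counting error only. The log2 difference was 8.60 (SE 0.52, adjusted p = 2.35e-06) and 9.80 with edgeR. Because day 1 was near 0, the fitted size depended on the pseudocount, at 11.2 with 0.1 and 6.56 with 5.

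Most of the listed genes active in embryos rose in the same libraries, and their part in the hch-1 result was not tested. Over all genes tested 28.8% were called higher and 26.8% lower. Of 15 listed embryo genes 11 were called higher at day 5, 2 lower and 2 were not called. Their summed value was 6948 to 9873 in the day 5 libraries and 1729 to 2896 in the day 1 libraries. The largest parts of the day 5 sum were pal-1, lin-26 and die-1, with day 5 means of 3071, 2613 and 1724. The median of log2(value + 1) over the 15 genes was 7.18, 6.65, 6.66 and 6.69 at day 5. At day 1 it was 6.60, 6.90, 6.64 and 6.64, so by this measure the ages overlapped. The largest increases were those of sdz-28, at 285, 357, 330.4 and 326 at day 5 and at 0.953, 0, 0 and 0 at day 1, and of the T-box gene tbx-37, at 144, 91.3, 57.6 and 116 at day 5 and at 2.86, 0.973, 0 and 0 at day 1. On the log2(value + 1) scale the third was pal-1, a caudal-type homeobox gene that also acts in the adult germ line, with a difference of 3.87 (SE 0.27). By the ratio of means, 14.5 for pal-1, the homeobox gene ceh-51 at 59.8 (58 reads at day 5 and 1 at day 1) and the endoderm GATA factor gene end-3 at 25.8 (77 and 3 reads) came before it. The members called lower were hlh-1, the myogenic factor gene, at -2.16, and the Hox gene nob-1, at -0.87; these calls were lost in 2 of 30 alternatives for hlh-1 and in 7 of 30 for nob-1.

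A cluster of 3 astacin genes on chromosome V was higher at day 5. The gene nas-20 (WBGene00003539; V, 11470925 to 11472309, minus strand) was at 437, 806, 462 and 310 at day 5 and at 3.81, 6.81, 0 and 0.969 at day 1, a log2 difference of 7.34 (SE 0.64, adjusted p = 1.57e-05). Every day 5 value was far above every day 1 value, and the difference was 8.51 with a pseudocount of 0.1 and 6.004 with 5. The gene nas-22 (WBGene00003541; V, 11474699 to 11478007, plus strand) was at 19.1, 40.1, 23.9 and 37.8 at day 5 and at 4.77, 9.73, 0 and 0 at day 1, a difference of 3.41 (SE 0.81, adjusted p = 0.00505). Its 125 reads at day 5 and 15 at day 1 gave a ratio of means of 8.34, and the fitted size was 5.12 with a pseudocount of 0.1, 2.14 with 5, and 1.93 with the batch 3 and 4 libraries of day 1 left out. Between them lies nas-21 (WBGene00003540; V, 11472564 to 11473899, plus strand), at 7.88, 5.59, 10.6 and 0.996 at day 5 and at 0, 0, 3.30 and 0 at day 1. Its 26 reads at day 5 and 3 at day 1 gave a ratio of 8.50 with an exact 95% counting interval of 2.61 to 43.9. The difference of nas-21 was 2.08 (SE 0.74, adjusted p = 0.0357), but the ages overlapped and it was not called with edgeR (adjusted p = 0.0629) or in 6 of the 8 fits that left out 1 library, and its size was 4.31 with a pseudocount of 0.1 and 0.91 with 5. No sequence was compared here, so how reads of similar cluster members were divided is uncertain.

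More genes around the cluster were called lower than higher at day 5. Within 100 kb of the left end of nas-20, 42 other genes outside the family were tested. Of these 22 were called lower, 6 higher and 14 not called. The shares were 52.4% lower and 14.3% higher, against 26.8% and 28.8% of all genes tested. Those called higher all lay to the right, 32.9 kb or more from nas-20. The nearest listed gene to the left, aat-6, an amino acid transporter gene, averaged 156 at day 5 and 577 at day 1, a difference of -1.88. The nearest tested gene to the right, the collagen gene col-157, averaged 404 at day 5 and 7432 at day 1, a difference of -4.22. The family member nas-19 (WBGene00003538; V, 11401091 to 11402710), in the same stretch, had 1 read at day 5 and 4 at day 1, all in the libraries of batch 2, and was not tested.

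**Figure D4:**
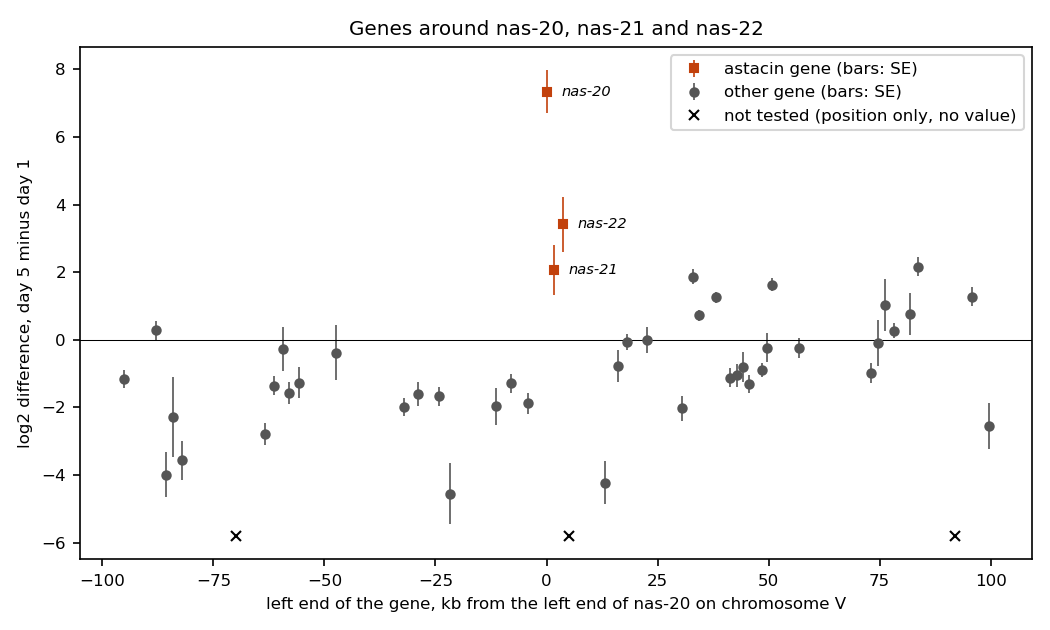
Log2 difference of day 5 minus day 1 for the genes within 100 kb of nas-20 on chromosome V, against the distance in kb between left gene ends; squares are astacin genes, circles other genes, bars the SE, and crosses mark the position of genes that were not tested. The squares of nas-20, nas-22 and nas-21 stand at 7.34, 3.41 and 2.08 among neighbours that mostly lie below 0.

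Among the other members called higher, nas-11 was the most abundant astacin gene at day 5. The gene nas-11 (WBGene00003530; X, 6713577 to 6716357) was at 4209.7, 2611, 3994 and 2138 at day 5 and at 1509.96, 1207, 873 and 1220.2 at day 1, a log2 difference of 1.40 (SE 0.26, adjusted p = 0.0014), or 0.83 with quantile normalization. Of its exonic bases 163 are shared with smf-2, a metal transporter gene. The gene nas-5 (WBGene00003524; I, 9886189 to 9888224) was at 210.4, 165, 135 and 147 at day 5 and at 26.7, 30.2, 70.4 and 55.2 at day 1, a difference of 1.92 (SE 0.37, adjusted p = 0.00161). In both genes the lowest day 5 library lay above the highest day 1 library.

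The gene nas-10 (WBGene00003529; X, 10960914 to 10963503) was low at both ages, at 12.4, 17.7, 58.5 and 22.9 at day 5 and at 0.953, 0.973, 0 and 0 at day 1. Its 119 reads at day 5 and 2 at day 1 gave a ratio of 58.4 with an exact 95% counting interval of 15.8 to 488, and its log2 difference was 4.12 (SE 0.58, adjusted p = 0.000242), or 6.16 with a pseudocount of 0.1 and 2.40 with 5. The gene nas-28 (WBGene00003546; III, 6180962 to 6183218) was at 116, 35.4, 33.7 and 32.9 at day 5 and at 13.3, 18.5, 17.6 and 25.2 at day 1. Its difference of 1.30 (SE 0.48) was called with an adjusted p of 0.042, but not with the replicate block, where batch is a term of the model (adjusted p = 0.0849). The day 5 library of batch 1 stood apart in this gene, and without it the difference was 0.86 (adjusted p = 0.0924). The call was kept when the batch 4 library of either age was left out and was lost when any other single library was.

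The members not called were 7. The gene nas-39 (WBGene00003555; X, 16456927 to 16471333), the worm gene closest in sequence to bone morphogenetic protein 1 and tolloid, was at 146, 128, 112 and 133 at day 5 and at 88.7, 142, 17.6 and 64.9 at day 1. The day 5 libraries lay close together, and the day 1 library of batch 2 fell inside their range. Its difference was 1.05 with a 95% interval of -0.18 to 2.28 (adjusted p = 0.134). When the batch 2 library of day 1 was left out, nas-39 was called, at 1.44 (adjusted p = 0.0429), and when that of batch 3 was left out its difference was 0.46. The remaining 6 were nas-3, nas-9, nas-24, nas-31, nas-32 and nas-33, with differences from -0.75 (nas-31, adjusted p = 0.0582) to -0.17 (nas-24, adjusted p = 0.883). Of these, nas-31 was called lower in 7 of 30 alternatives, edgeR (adjusted p = 0.0478) among them. The gene nas-9 was called lower in 3 alternatives and nas-32 in 1.

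**Figure D5:**
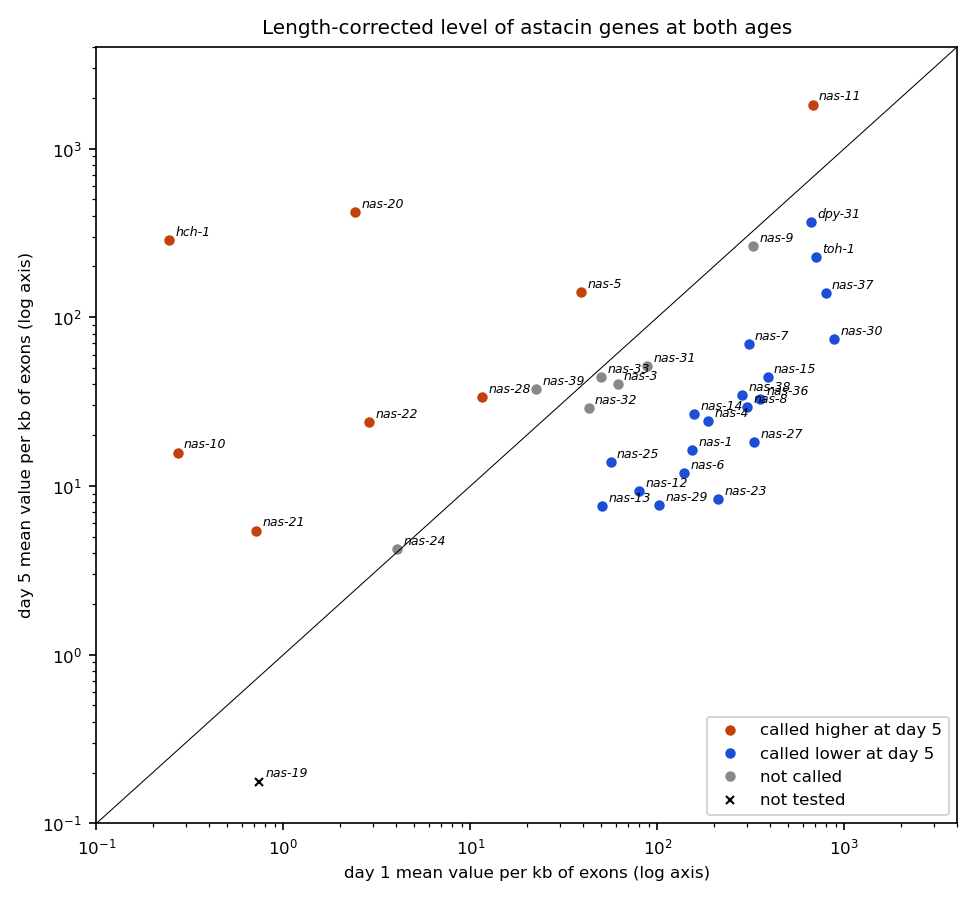
Mean deposited value per kb of exons of each astacin gene, day 5 on the vertical and day 1 on the horizontal axis, both logarithmic; the line marks equal levels and colours mark the calls. The gene nas-11 is highest at day 5, at 1821 per kb, and nas-30 at day 1, at 883 per kb; hch-1 and nas-20 lie farthest above the line.

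The order of the members by level, compared per kb of exons, differed between the ages. At day 5 the highest mean levels were those of nas-11 at 1821, nas-20 at 421, dpy-31 at 365 and hch-1 at 286 per kb. At day 1 they were those of nas-30 at 883, nas-37 at 794, toh-1 at 706, nas-11 at 676 and dpy-31 at 661 per kb. The gene nas-11 alone made up 34.4 to 53.3% of the summed astacin value per kb in the day 5 libraries and 5.62 to 16.2% in the day 1 libraries. The genes nas-20 and hch-1, in places 2 and 4 at day 5, held places 31 and 35 of the 35 members at day 1.

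Genes of other zinc metalloprotease families of the worm fell in larger number than they rose. Of all genes tested 26.8% were called lower and 28.8% higher, and of the 34 tested astacin genes 19 were called lower and 8 higher. Of 28 genes from the ADAM, ADAMTS, matrix metalloprotease and neprilysin families, 15 were called lower at day 5, 4 higher and 9 were not called. Their median log2 difference was -1.06. The largest decreases were those of the matrix metalloprotease gene zmp-2, at -3.63 (SE 0.62), the neprilysin gene nep-16, at -3.40 (SE 0.51), and zmp-6, at -3.30 (SE 0.61). The largest increases were those of the ADAM genes unc-71, which acts in cell migration, at 3.76 (SE 0.26), and sup-17, which cleaves the Notch receptors, at 2.96 (SE 0.54), and of nep-4 at 2.05 (SE 0.49). Of the 2 genes listed for inhibitors of the TIMP type, timp-1 was called higher, at 536, 411, 498 and 504 at day 5 and at 201, 193, 217 and 302 at day 1, and cri-2 was not called, with a difference of -0.02 (SE 0.24, adjusted p = 0.952).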

How the data were processed

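Poly(A) RNA of whole worms was compared in 8 libraries, 4 at day 5 and 4 at day 1, grouped by the treatment label. Per the submitters' processing notes, HISAT2 and HTSeq were used with build WBcel235; neither their versions nor the annotation or the treatment of multi-mapping reads is stated there. The authors' deposited values are a signal: although the table carries the name FPKM, each column is whole read counts over 1 size factor, with no length correction. Whole reads came back for 100% of values (tolerance 0.001 reads; 1 read was worth 0.886 to 1.13), and the planned log-scale test was kept. The labels are at odds in places: in the design text both ages bear the day 5 code, and the culture lengths imply a gap of 5 days where the ages imply 4.

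limma 3.58.1 (R 4.3.3) was run on log2(value + 1) with age as the only term, a variance trend and Benjamini-Hochberg adjustment over all genes with a mean of at least 1. edgeR 4.0.16 (quasi-likelihood) and DESeq2 1.42.0 on the recovered reads were alternatives, beside other scalings, filters, pseudocounts and left-out libraries. A gene name table matched 16887 IDs; coordinates (1-based) and exon lengths came from annotation release 115 of WBcel235. Of the 35 members 14 share exonic bases with another gene, and the library kit is not stated to keep strand, so reads there cannot be told apart. Low values are set by single reads. No promoter or protein sequence was analysed here. Library values are given for members with an established role, the 6 largest non-overlapping differences in each direction, the 3 highest levels per kb and members not tested; of each list, up to 3 called genes per direction. Values of nas-28, nas-21 and of genes named outside this rule were chosen after they were seen. Members and lists were chosen with earlier results of these data known. The fit was also run on simulated counts with far fewer changed genes than were called here, so that run does not check it in the present setting. Batch labels pair the libraries across ages; deviations of same-batch libraries from their age means correlated at -0.224, 0.235, -0.0946 and -0.0175 across genes. Plots were drawn with matplotlib 3.10.9.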

Additional observations from a re-analysis of the deposited data

Results flagged for a closer look

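Dixon's criterion flags about 1 set in 20 by chance when values are normally distributed. A set with reads in only 1 library is always flagged, so the count here is not weighed against that rate. In 11 of the 70 sets of 4 libraries checked (35 genes at 2 ages), 1 library lay far from the other 3 by this criterion. At day 5 these were nas-28 in batch 1 at 116, nas-14 in batch 3 at 103 and nas-3 in batch 4 at 85.7, all the highest, and nas-6 at 4.5 and nas-8 at 24.8 in batch 1, both the lowest. At day 1 these were nas-3 at 125.0 and nas-24 at 14.5, both in batch 4 and both the highest; nas-3 was therefore highest in batch 4 at both ages. The remaining cases rest on 1 to 4 reads in a single library with none in the others: nas-19 in batch 2 at 0.932 at day 5 and at 3.89 at day 1, nas-21 in batch 3 at 3.30 at day 1, and hch-1 in batch 1 at 1.91 at day 1.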

How the results depend on the processing

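Over 30 alternatives between 17 and 21 astacin genes were called lower and between 6 and 8 higher, and between 6222 and 10383 of all genes. With 1 library left out in turn the ranges were 19 to 20 lower, 6 to 8 higher and 8254 to 9445 of all genes. Of the called members, 16 of the 19 lower and 6 of the 8 higher kept their call under every alternative in which they were tested; the exceptions were dpy-31 (against 1.5-fold only), nas-12, nas-13, nas-21 and nas-28. With the replicate block 19 were lower and 7 higher, nas-28 being the only astacin call that changed. Pseudocounts of 0.1 and 5, TMM scaling, median-of-ratios scaling, robust or untrended variance and library weights changed no astacin count, but the pseudocount changed the size of differences with day 1 values near 0 (hch-1, nas-10, nas-20, nas-21 and nas-22). With edgeR the median of all genes was -0.23. Scaling on genes outside the top 1% gave a median of all genes of -0.29, against -0.06 with the values as deposited, and called 21 lower and 7 higher. The batch alternatives were added after seeing the data; leaving out the batch 3 and 4 libraries of day 1 gave 17 lower and 7 higher, and leaving out those of batches 1 and 2 gave 20 and 7. The sign of some genes that were not called changed. The difference of nas-24 was 0.084 with DESeq2, 0.10 with edgeR, 0.80 with library weights, 0.014 with a pseudocount of 5, 0.42 without batch 1, 0.16 without batch 4 and 0.45 with the batch 3 and 4 libraries of day 1 left out, and it ran from -0.62 to 0.63 when 1 library was left out. With quantile normalization nas-32 was at 0.0011 and nas-33 at 0.044. The cause was not tested. Among the gene lists, leaving out the day 1 libraries of batches 1 and 2 raised the number called higher to 4 moulting, 3 collagen-processing and 7 other metalloprotease genes, and 6 collagen-processing genes were called lower against 1.5-fold. Of 1019 comparisons of a member's alternative with its reported value, 33 lost a call, 14 gained one and 11 changed sign. Depth limits nas-10, nas-19, nas-21 and hch-1 at day 1, where 2 to 4 reads were found.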

Other observations

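The calls of the listed astacin genes were also counted by chromosome. All 9 listed astacin genes of chromosomes II and IV were called lower at day 5. Of the 9 listed on chromosome V none was called lower: 3 were called higher, 5 were not called and nas-19 was not tested. Those called higher were the neighbouring genes nas-20, nas-21 and nas-22. On chromosome X, 3 were called higher, 4 lower and 2 were not called, on chromosome III 1 was called higher and 4 lower, and on chromosome I 1 was called higher and 2 lower. No test of this distribution was made. The share of all genes called on each chromosome was not computed, so whether other genes there have similar counts is unknown. The longest annotated protein of the members called higher had 360 to 605 residues, and that of the members called lower 270 to 765, so the ranges overlapped; the longest of the family, 928 residues, belongs to nas-39, which was not called.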
